A study of Oryza sativa with 6 samples.

Results

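The MADS-box transcription factors of rice were followed in roots of the transgenic line Huahui 1 (HH1) and of Minghui 63 (MH63), the cultivar it was made from. Members were all genes with a name or synonym of the form OsMADS and a number in the gene tables used, and the names came from RefSeq synonyms. Of the 17905 genes with a probe set of their own on the array, 31 were members, with 39 of the 57194 probe sets that are not controls. Of these genes 27 had 1 probe set and 4 had several, and no member was read from a probe set assigned to more than 1 gene. Only MIKC-type genes were among the 31. A gene that fits the name rule but has no probe set of its own is not in this count. MADS-box genes listed under a locus number alone were not analysed here.

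HH1 carries its transgene in the Minghui 63 background and was set against the untransformed cultivar, at a plant age of 30 days for both. Seedlings of both genotypes grew in nutrient solution in a climate chamber. Each genotype had 3 samples, which the labels call biological replicates, with 1 array each. The labels do not give the transgene or its promoter, and its transcript was not analysed here. The series asked which genes and pathways differ in the transgenic roots, with unintended effects in mind.

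MADS-box proteins bind DNA as dimers through the conserved domain that gives the family its name, and MIKC-type members can join into larger complexes through their keratin-like region. In flowers, combinations of these factors set the identity of each organ. Other branches of the family act outside the flower. The ANR1 branch is tied to nitrate responses and root branching, the SOC1 and SVP branches to the timing of flowering and to vegetative growth, and the AGL12 branch to roots in Arabidopsis.

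The arrays were close in overall brightness, with median signals of 33.5, 33.5 and 33.7 in HH1 replicates 1, 2 and 3, and 33.1, 33.8 and 33.5 in MH63 replicates 1, 2 and 3. HH1 arrays were less alike than MH63 arrays. Across probe sets, which are not independent replicates, correlations of log2 signals were 0.932 to 0.966 among HH1 arrays and 0.971 to 0.980 among MH63 arrays. On the first principal component (43.6% of the variance) HH1 replicate 2 scored 67.3 and HH1 replicate 3 scored -45.2, at the opposite ends, so each genotype difference below was also computed without each array. The tissue label was checked with root markers, of which 8 of 11 were above background on all 6 arrays, among them the root silicon transporter gene LSI1 at a mean signal of 7682 in HH1 and 6662 in MH63. Green shoot markers summed to 566, 1724 and 466 in HH1 replicates 1, 2 and 3, and to 2216, 2257 and 481 in MH63 replicates 1, 2 and 3. Of these 11 markers, 4 were above background on all 6 arrays and 2 on none. The marker CAB2R read 166, 1109 and 63.2 in HH1 and 1368, 1373 and 30.2 in MH63. RBCS1 was at a mean of 3.61 in HH1 and 3.38 in MH63, far under background. It was the only small subunit gene of the list with a probe set of its own, and the others were not read. Seed markers summed to 4925, 580 and 367 in HH1 replicates 1, 2 and 3, and to 391 to 539 in MH63. The high sum was mostly 1 probe set on 1 array, that of the prolamin gene matched as RP5. It read 4386 in HH1 replicate 1 and 26.96 to 200.2 on the other arrays. This probe set can also bind related transcripts (an _x_at design), so its gene is uncertain. The glutelin gene GLUA3 read 110, 157 and 51.6 in HH1 and 11.1, 9.59 and 6.86 in MH63. Precision is limited by the number of arrays. The p-values of limma set each difference against the spread between these samples, moderated by the spread of all tested probe sets.

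The first question was which members are seen in roots at all. The background level of an array was the 95th percentile of its 64 reporter probe sets, which represent genes foreign to rice. This level lay between 37.6 and 41.0 on HH1 arrays and between 37.1 and 42.3 on MH63 arrays. Signals of different probe sets are not on 1 scale, so members were set against this level and not ranked against each other. On all 6 arrays, 12 of the 31 genes were above it (38.7%), where 75.8% of all genes with a probe set were. By probe set the count was 13 of 39 (33.3%), against 41.4% of all probe sets. The bases of these 2 shares are unlike, as only 22436 of the 57194 probe sets are assigned to 1 gene, and all 39 member probe sets are. The same 12 genes were above the level on all 3 arrays in HH1 and on all 3 in MH63, and no member was seen in 1 genotype alone. OsMADS25 was above it on 2 of 3 arrays in each genotype. The other 18 genes, with 25 probe sets, stayed at or below it on every array, with signals from 3.73 to 35.5. A signal below this level does not show that a gene is silent, only that it could not be told from background on these arrays.

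**Figure D1:**
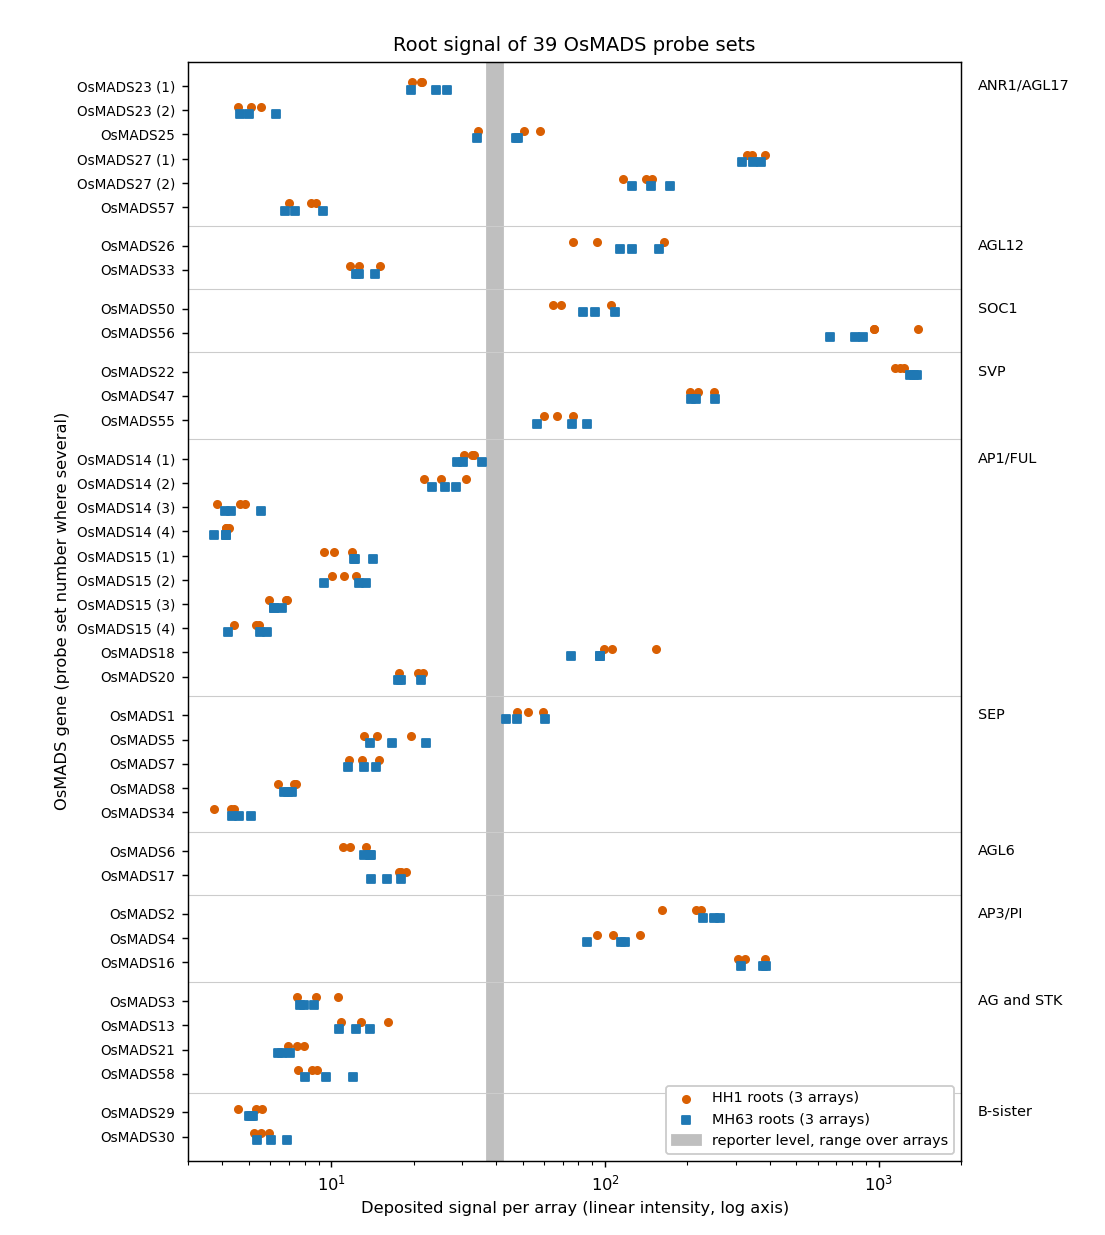
Deposited signal of each of the 39 OsMADS probe sets on each array (horizontal log axis), with genes down the page grouped by subfamily, HH1 arrays as circles and MH63 arrays as squares, and the range of the reporter level over arrays as a grey band. All genes of the SOC1, SVP and AP3/PI subfamilies lie right of the band, and all of the AGL6, AG and STK, and B-sister subfamilies lie left of it.

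Detection differed between the subfamilies, of which only the genes with a probe set of their own are counted. Both SOC1 genes (OsMADS50 and OsMADS56), all 3 SVP genes (OsMADS22, OsMADS47 and OsMADS55) and all 3 AP3/PI genes (OsMADS2, OsMADS4 and OsMADS16) were above the level on every array. Of the 4 ANR1/AGL17 genes OsMADS27 was, of the 2 AGL12 genes OsMADS26, of the 4 AP1/FUL genes OsMADS18 and of the 5 SEP genes OsMADS1. No gene was above it among the 2 AGL6 genes, the 4 AG and STK genes and the 2 B-sister genes, whose highest signals were 18.8, 16.2 and 6.91. In all, the subfamilies SEP, AGL6, AG and STK, and B-sister, which act mainly in flowers and ovules, had 1 of 13 genes above the level.

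Genes of the ANR1/AGL17 branch lay on both sides of the level. OsMADS27, a nitrate-responsive regulator of root growth in rice, had signals of 330, 384 and 344 in HH1 replicates 1, 2 and 3, against 348, 317 and 370 in MH63 replicates 1, 2 and 3. Its second probe set read 117, 149 and 141 in HH1 against 173, 125 and 147 in MH63. Both probe sets were far above background on all arrays, and in both the genotypes overlapped. OsMADS25, which promotes root growth in rice, stood near the level, at 34.3, 58.1 and 50.5 in HH1 and 47.9, 34.1 and 47.2 in MH63. OsMADS23 did not exceed 26.5 on any array in either of its probe sets, and OsMADS57, a regulator of tillering, read 7.05 to 8.82 in HH1 and 6.81 to 9.35 in MH63. OsMADS23, OsMADS27 and OsMADS57 are known targets of the monocot microRNA miR444, and in roots this set held 1 member above background and 2 below it.

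The 2 AGL12 genes also split. OsMADS26, a stress-related regulator in rice, had signals of 164, 76.6 and 93.4 in HH1 replicates 1, 2 and 3, against 157, 125 and 114 in MH63. HH1 held both the highest and the lowest array, a 2.14-fold span. OsMADS33 read 11.7 to 15.1 in HH1 and 12.3 to 14.5 in MH63. OsMADS33 lies directly beside OsMADS13, an ovule identity gene of the STK branch, in the RefSeq gene order, and OsMADS14 lies beside OsMADS34. All 4 of these neighbours were below background.

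Both SOC1 genes were seen, and they leaned in opposite directions between the genotypes. OsMADS56, a long-day repressor of flowering, read 959, 1393 and 962 in HH1 replicates 1, 2 and 3, against 876, 818 and 660 in MH63 replicates 1, 2 and 3. All HH1 arrays were above all MH63 arrays, by the most in HH1 replicate 2. OsMADS50, a long-day activator of flowering, read 69.1, 105 and 64.8 in HH1 against 109, 83.2 and 91.6 in MH63. Here HH1 replicates 1 and 3 were below all MH63 arrays and HH1 replicate 2 was not.

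The SVP genes are negative regulators of brassinosteroid responses in rice. OsMADS22 read 1235, 1148 and 1192 in HH1 against 1382, 1341 and 1297 in MH63, so that every HH1 array was lower by a small margin. Its coefficient of variation was 3.62% in HH1 and 3.16% in MH63, where the median over all tested probe sets was 13.97% in HH1 and 10.5% in MH63. The probe set of OsMADS22 can also bind related transcripts (an _s_at design), so its gene is uncertain. OsMADS47 read 249.8, 219 and 204 in HH1 and 252, 207 and 214 in MH63. OsMADS55 read 66.9, 76.4 and 59.9 in HH1 and 85.9, 75.7 and 56.3 in MH63. For OsMADS47 and OsMADS55 the genotypes overlapped.

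The AP3/PI genes are the class B regulators of the flower, which specify lodicules and stamens in rice, and their signals in roots were clearly above background. OsMADS16, the AP3 gene known as SUPERWOMAN1, read 305, 383 and 324 in HH1, against 378, 386 and 315 in MH63. OsMADS2, a PI gene, read 215, 161 and 224 in HH1 against 262, 250.1 and 228 in MH63, with all HH1 arrays below all MH63 arrays. OsMADS4, the other PI gene, read 93.5, 107 and 134 in HH1 and 85.8, 114 and 119 in MH63. Each of these genes was read from 1 probe set of the plain _at kind, which is meant for a single transcript. Whether these probe sets also pick up other transcripts was not tested.

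In the AP1/FUL subfamily OsMADS18, which advances flowering when overexpressed in rice, was the gene seen. It read 98.8, 154 and 106 in HH1 against 95.5, 75.1 and 95.7 in MH63, with no overlap and a gap of only a few units between the nearest arrays. OsMADS14 and OsMADS15, the genes of this branch that act in the change of the shoot tip to flowering, had 4 probe sets each and OsMADS20 had 1. None of these 9 exceeded 35.5, the highest being an _x_at probe set of OsMADS14. Among the SEP genes OsMADS1, a regulator of the floret known as LEAFY HULL STERILE1, was just above the level, at 52.4, 59.4 and 47.9 in HH1 and 47.8, 60.4 and 43.5 in MH63. OsMADS5, OsMADS7, OsMADS8 and OsMADS34 ran from 3.73 to 22.1.

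**Figure D2:**
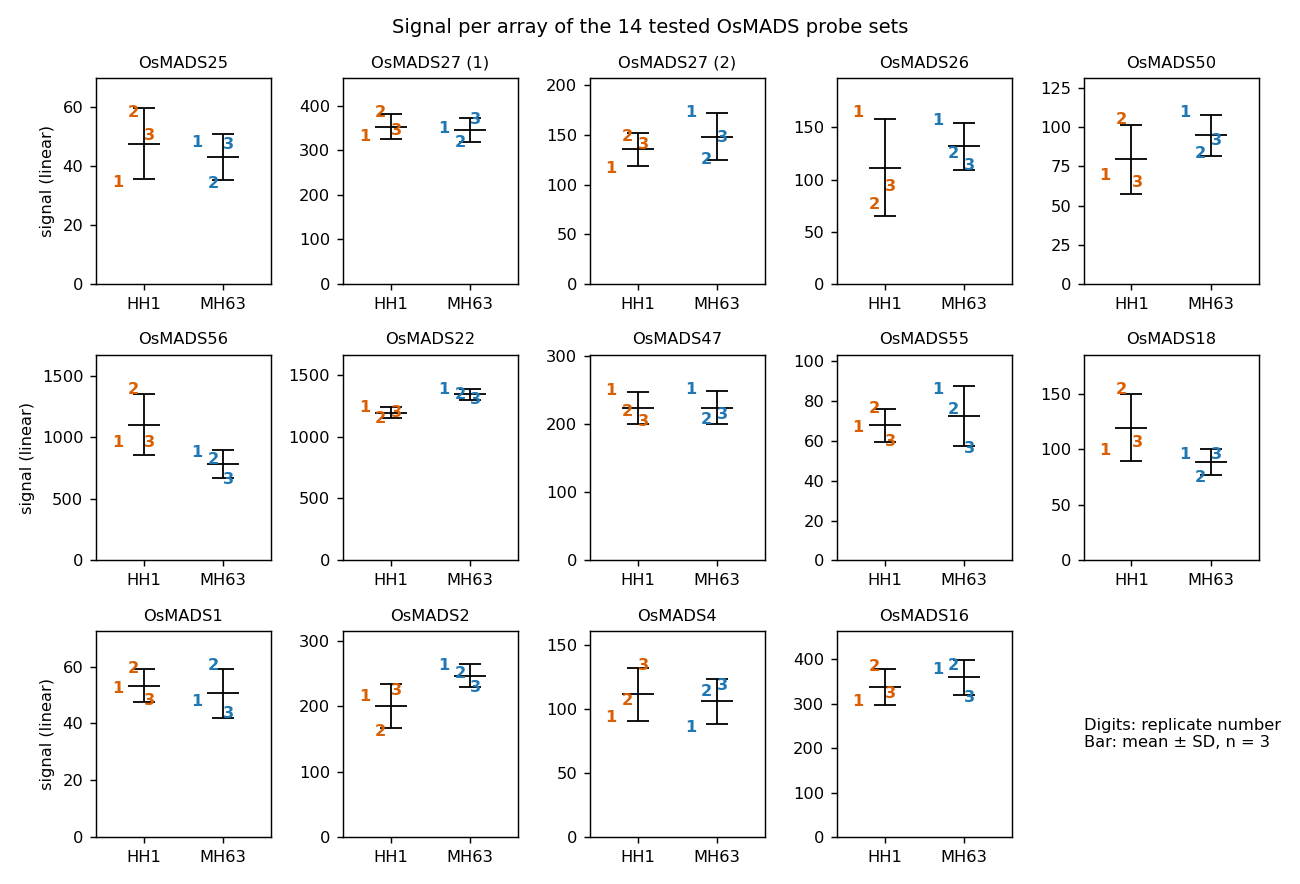
Signal of the 14 tested OsMADS probe sets on a linear axis from 0, with HH1 left and MH63 right in each panel, digits marking the replicates and bars the mean ± SD (n = 3 each). OsMADS56 and OsMADS18 lie higher in HH1 and OsMADS22 and OsMADS2 lower in HH1 without overlap, and in the other 10 panels the genotypes overlap.

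The genotypes were then compared in the fit over all 28597 brighter probe sets, which included 14 probe sets of 13 members. None of the 14 passed at an adjusted p under 0.05 in limma, and the smallest adjusted p was 1.00. At an unadjusted p under 0.05 there was 1, where 4.01% of all tested probe sets had one. Of all probe sets tested, 0.112% passed, 0.0839% higher and 0.028% lower in HH1. With no brightness filter all 39 could be tested and none passed, where 0.0944% of all probe sets did. The background share rests on 32 calls, a count that single arrays moved to 0 without HH1 replicate 1, 1 without MH63 replicate 1, 13 without MH63 replicate 3, 20 without MH63 replicate 2 and 306 without HH1 replicate 3, and no OsMADS probe set was among the calls in any of these. Of the 14, 6 were higher and 8 lower in HH1, where 46.4% of all tested probe sets were higher. Their median log2 difference was -0.043, beside -0.014 over all tested probe sets. The groups did not overlap for 4 of the 14 (28.6%), where 8.78% of all tested probe sets did not overlap. Of the 4, 2 were higher and 2 lower in HH1, beside 3.51% and 5.27% of all tested probe sets. In bulk roots a change in the number of cells that express a gene and a change in RNA per cell cannot be told apart.

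OsMADS56 had the largest difference, with a mean signal of 1105 ± 250 in HH1 roots and 785 ± 111 in MH63 roots (SD, n = 3 each). The log2 difference was 0.48 with a standard error of 0.19, a 95% interval from 0.027 to 0.94, and an adjusted p of 1.00 in limma. Without HH1 replicate 2, its highest array, the difference was 0.30. OsMADS18 stood at 120 ± 30.1 in HH1 roots and 88.8 ± 11.8 in MH63 roots (SD, n = 3 each), a log2 difference of 0.41 with an interval from -0.081 to 0.90. It was 0.21 without HH1 replicate 2. HH1 replicate 2 was the highest array for both genes, so leaving it out had to make both differences smaller.

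On the lower side OsMADS2 averaged 200.02 ± 33.9 in HH1 roots and 247 ± 17.1 in MH63 roots (SD, n = 3 each). Its log2 difference was -0.32 with an interval from -0.70 to 0.070, and -0.17 without HH1 replicate 2. OsMADS22 averaged 1192 ± 43.2 in HH1 roots and 1340 ± 42.4 in MH63 roots (SD, n = 3 each). Its log2 difference was -0.17 with an interval from -0.40 to 0.063, and it stayed between -0.20 and -0.14 whichever array was left out. OsMADS26 and OsMADS50 had log2 differences of -0.31 and -0.28 with overlapping groups. For OsMADS26 the interval ran from -1.01 to 0.39, the widest of the 14, and the difference was -0.63 without HH1 replicate 1 and -0.079 without HH1 replicate 2. For OsMADS50 it was -0.49 without HH1 replicate 2 and -0.14 without HH1 replicate 3. The remaining 8 probe sets, of OsMADS1, OsMADS4, OsMADS16, OsMADS25, OsMADS27, OsMADS47 and OsMADS55, lay between -0.13 and 0.13. Their intervals, between -0.54 and 0.68 at the widest, leave room for changes in either direction, and the missing calls do not show equal levels. The 2 probe sets of OsMADS27 fell on either side of 0, at 0.032 and -0.13.

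**Figure D3:**
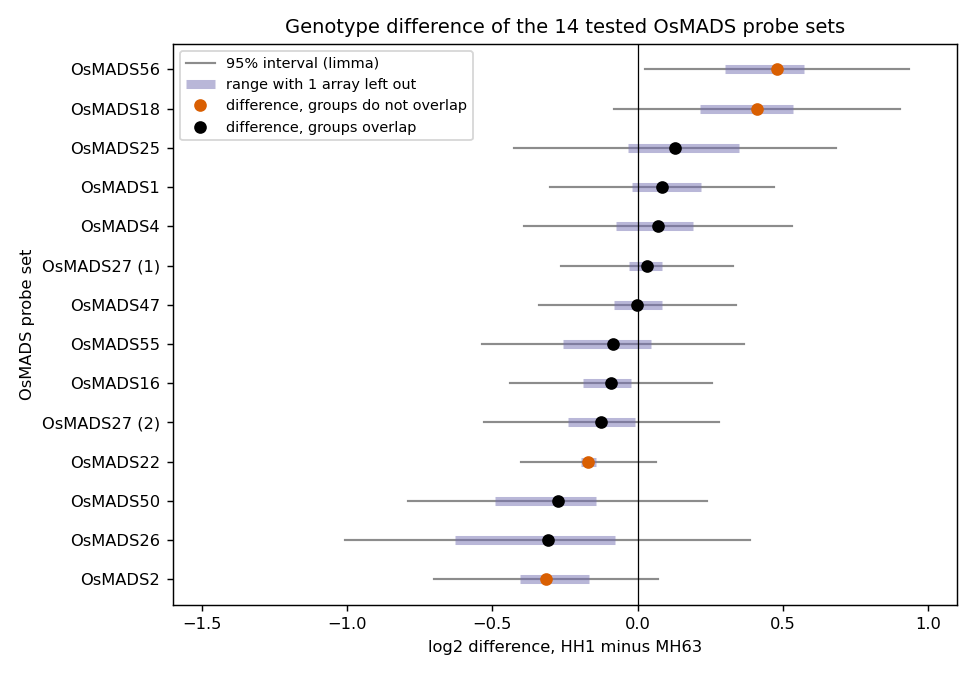
Log2 difference HH1 minus MH63 of the 14 tested OsMADS probe sets with its 95% interval (thin line) and the range of the difference when 1 array is left out (thick band), orange points marking groups that do not overlap. OsMADS56 is the only one whose interval lies off 0, from 0.027 to 0.94, and its adjusted p was 1.00.

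Among the 25 dim probe sets, which were not tested, the groups did not overlap for 1, an OsMADS15 probe set at 9.46 to 11.9 in HH1 and 12.1 to 14.2 in MH63, where 10.2% of all dim probe sets did not overlap. Both genotypes were below background there, so no fold is given. Green shoot markers had log2 differences below 0 for 7 of 7 tested genes, with a median of -0.76. Of all tested probe sets, 46.4% lay above 0. CAB2R, PSAH and GLK2 were highest on the same arrays, HH1 replicate 2 and MH63 replicates 1 and 2, so the 7 signs are not independent. Of the untested markers, CHLI and RBCS1 lay above 0 and CHLH and GLK1 below. The summed marker signal was high in HH1 replicate 2 and in MH63 replicates 1 and 2, so the high arrays came from both genotypes. No marker passed the test, and 2 had an unadjusted p under 0.05 in limma, where 4.01% of all tested probe sets had one. Leaves also express several of these MADS-box genes, and the part of shoot material in the differences above was not tested.

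Because the SOC1 genes leaned apart, ratios within each array were compared between genotypes for all 7 pairs of genes above background in the same subfamily. This comparison was chosen after the values were seen. The size of such a ratio depends on the probes and has no meaning by itself, but its difference between genotypes does not depend on the scaling of the array. The log2 ratio of OsMADS56 over OsMADS50 was 3.80, 3.73 and 3.89 in HH1 replicates 1, 2 and 3, against 3.00, 3.30 and 2.85 in MH63. It averaged 3.81 ± 0.080 in HH1 roots and 3.05 ± 0.23 in MH63 roots (SD, n = 3 each), a difference of 0.76. In this ratio HH1 replicate 2 was no longer apart from the other HH1 arrays. The two-sided exact permutation p was 0.1, the smallest that 3 against 3 allows, and 0.7 adjusted over the 7 pairs. This p is not independent of the choice of the comparison, and the adjustment over pairs does not correct for that choice. The groups overlapped in the other 6 pairs, whose differences ran from -0.39 for OsMADS2 over OsMADS4 to 0.22 for OsMADS16 over OsMADS2, with exact permutation p of at least 0.2. In OsMADS22 over OsMADS47, the pair next by p, the mean was 2.42 ± 0.12 in HH1 roots and 2.58 ± 0.12 in MH63 roots (SD, n = 3 each).

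**Figure D4:**
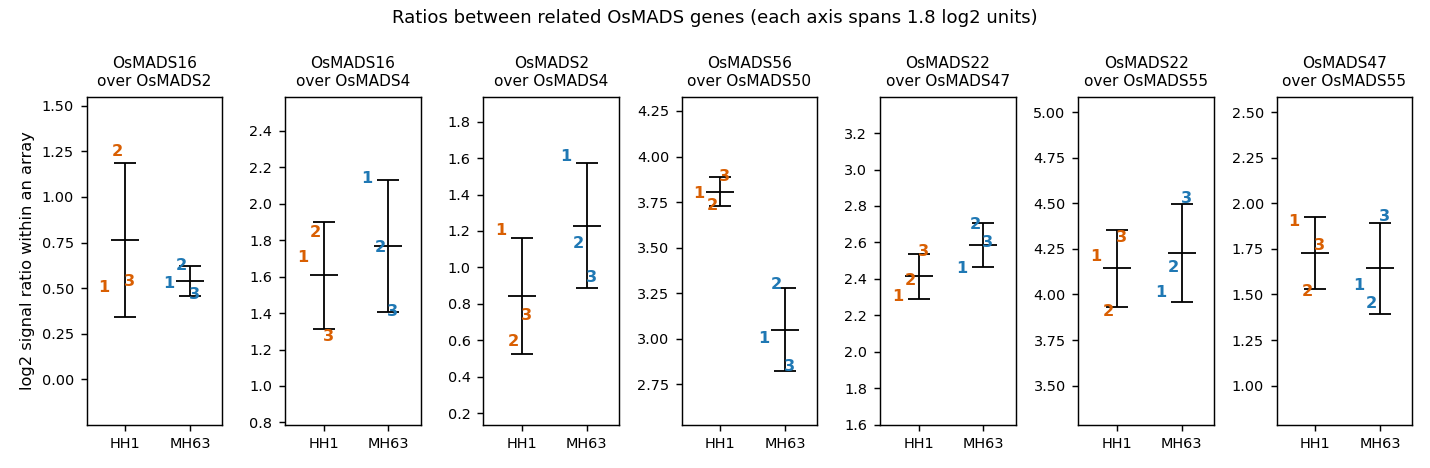
Log2 ratio of signals within an array for the 7 pairs of related OsMADS genes, with HH1 left and MH63 right, digits marking the replicates and bars the mean ± SD (n = 3 each). Each vertical axis is centred on its own pair and spans the same range, and only OsMADS56 over OsMADS50 separates the genotypes, by 0.76. The comparison was chosen after these 2 genes were seen to lean apart.

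Genes that work with these factors were read from lists chosen by name. In the flowering list 13 genes had a probe set, 8 of them above background on all 6 arrays and 10 of them tested. None passed in either direction in limma, where 0.112% of all tested probe sets did. None had an unadjusted p under 0.05 in limma, where 4.01% of all tested probe sets had one. With shares this small, having none does not set so short a list apart. Of the 10 tested, 7 lay below 0, with a median log2 difference of -0.16. Of all tested probe sets, 46.4% lay above 0. The florigen gene HD3A and its activator HD1 were below background, at means of 9.73 and 6.24 in HH1 and 10.4 and 6.01 in MH63. D14, the strigolactone receptor gene that OsMADS57 represses in rice, read 3445, 4845 and 4400.5 in HH1, against 4748, 5101 and 5130 in MH63. Its log2 difference was -0.25, with 1 HH1 array inside the MH63 range, and it was -0.11 without HH1 replicate 1, the lowest array. The phytochrome gene PHYA, read from a probe set that can bind related transcripts, averaged 927 ± 199 in HH1 roots and 1127 ± 157 in MH63 roots (SD, n = 3 each), a log2 difference of -0.29 that was -0.16 without HH1 replicate 2 and -0.46 without HH1 replicate 3. The gene matched as FC1 in this list is named CAD7 by RefSeq, a lignin enzyme, and does not belong to flowering. It is kept in the counts above, with a log2 difference of -0.72 and signals from 10.4 to 516 between arrays.

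In the list of nitrogen uptake and assimilation 17 genes had a probe set, 14 of them above background on all 6 arrays, and all 17 were tested. None passed in either direction in limma, where 0.112% of all tested probe sets did. None had an unadjusted p under 0.05 in limma, where 4.01% of all tested probe sets had one. Here too, having none does not set so short a list apart. Of the 17, 7 lay above 0 and 10 below, with a median log2 difference of -0.044, where 46.4% of all tested probe sets lay above 0. The name GS2 matched 2 genes, the glutamine synthetase gene GLN2 and GRF4, a growth-regulating factor that RefSeq also lists under GS2 and that is no enzyme of assimilation. The ammonium transporter gene AMT3;1 had the smallest p, at 38.3, 39.4 and 47.1 in HH1 against 49.4, 47.4 and 59.5 in MH63. The groups did not overlap, by a margin of under 1 unit, the signals were close to background, and the probe set can bind related transcripts. NAR2.2, a partner protein of nitrate transporters, read 75.3, 94.2 and 74.7 in HH1 and 66.0, 77.1 and 60.5 in MH63, with overlap.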

How the data were processed

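Total RNA from roots of 6 samples was labelled with biotin and hybridised to Affymetrix rice arrays, 1 array per sample. The deposited values are 1 linear intensity per probe set and array, and the submitters' processing notes name MAS5 without a version. The table has no detection calls, and the authors' scaling is not given in sources used here. The values do not settle whether they are MAS5 signals or a summary fitted across arrays, which would lower the spread of dim signals between arrays. Array probe sets were matched to genes by Entrez number through the platform annotation, and to names through RefSeq (assembly ASM3414082v1). RefSeq coordinates served to order the genes when neighbours were named. No probe set was placed by coordinates, because the build behind the array is not known.

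Signals were taken as log2 values without further scaling. After 187 controls were set aside, the brighter 50% of the other 57194 probe sets by mean log2 signal (28597) entered 1 two-sided limma 3.58.1 fit in R 4.3.3 (lmFit, then eBayes with its trend option), and p-values were adjusted over all 28597 by Benjamini-Hochberg at a threshold of 0.05. The fit was also run on simulated data with independent noise for each probe set and array. Such data lack the variation that real probe sets share, so the run does not show how the fit behaves on these arrays. Members below that limit have values and no test. The members, gene lists and tests were chosen with earlier results of these data known. Genes named with values were all those above the reporter level on all 6 arrays, any above it in 1 genotype alone, the 3 smallest p-values, and the 2 smallest p-values of each related list. OsMADS25, which was tested but outside that rule, was added after its values were seen. OsMADS15, OsMADS23, OsMADS33, OsMADS57, HD3A, HD1, the gene matched as FC1 and the tissue markers also have values or ranges above, though outside that rule. Alternatives were quantile normalization, median centring, no brightness filter, an offset of 13.2 before log2, a replicate block, leaving out each array, and other background levels. Figures were drawn with matplotlib 3.10.9.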

Additional observations from a re-analysis of the deposited data

How the results depend on the processing

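No OsMADS probe set and no gene of the flowering and nitrogen lists passed in limma under any of the 11 alternative fits. The smallest adjusted p of an OsMADS probe set was 0.463, for OsMADS50 without HH1 replicate 2. With 1 array left out the count of calls was 0 to 0 for both, and for genes above background 12 to 12. No fit changed the call of any of the 14 tested probe sets, the replicate block included, where 0 OsMADS probe sets and 0 list genes passed. Deviations of same-numbered arrays correlated at -0.12, 0.45 and 0.31 for replicates 1, 2 and 3, and 4 of 6 arrays correlated best with their own number. These values do not settle whether the numbers pair the samples, and the main fit used no pairing. Of all probe sets, 17 passed with the replicate block and 54 with no brightness filter, beside 32, and 0 to 306 passed with 1 array left out. The count of genes above background was 10 with the highest reporter probe set as the level, which drops OsMADS1 and OsMADS55, and 9 with plain _at probe sets, which drops OsMADS22, OsMADS50 and OsMADS55. It was 13 with 4 of 6 arrays required, which adds OsMADS25. The log2 difference kept its sign in all 11 fits for 8 of the 14 probe sets, among them OsMADS2, OsMADS18, OsMADS22, OsMADS26, OsMADS50 and OsMADS56. Small differences turned. With quantile normalization OsMADS47 became 0.0064. With 1 array left out OsMADS1 ran from -0.019 to 0.22 and was negative without MH63 replicate 3. OsMADS4 ran from -0.076 to 0.19 and was negative without HH1 replicate 3 or MH63 replicate 1. The brighter OsMADS27 probe set ran from -0.031 to 0.084, and OsMADS25 from -0.032 to 0.35, both negative without replicate 2 of either genotype. OsMADS47 ran from -0.082 to 0.085 and was positive when HH1 replicate 2, HH1 replicate 3 or MH63 replicate 1 was left out. OsMADS55 ran from -0.26 to 0.046 and was positive without MH63 replicate 1. These follow from fewer arrays or another scaling, and further causes were not tested. Signals near the reporter level limit what can be said of OsMADS1 and OsMADS25.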
